A study of Caenorhabditis elegans with 2 samples.

Results

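The loci that encode the RNA components of 4 ribonucleoprotein particles were followed, 8 genes in all, through a chromatin immunoprecipitation and sequencing (ChIP-seq) experiment on TBX-11 in the nematode Caenorhabditis elegans. They are rpr-1 (RNase P RNA), mrpr-1 (RNase MRP RNA), yrn-1 (Y RNA) and every gene whose name starts with srpr-, the RNA of the signal recognition particle (SRP), which gave 5 loci. These 8 genes were chosen by name from the Ensembl annotation of assembly WBcel235, in which all 8 belong to the class of 7764 nuclear genes annotated as ncRNA. The set was put together with earlier peak results of the same data known, so the counts of peaks below describe the genes and carry no test.

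The worms were of strain OP368. Per the labels they carry the transgene wgIs368, a trimmed fosmid with tbx-11 fused to TY1, EGFP and 3xFLAG tags together with unc-119(+), in an unc-119(tm4063) background, and no tbx-11 mutation is listed. TBX-11 is a T-box protein, a family of DNA-binding transcription factors. Early embryos labelled as 1 hour old were collected by bleaching, the labelled material is whole organisms, so cell types are mixed, chromatin was sonicated to 200 to 800 bp, and an antibody against GFP is named for the pull-down, although the antibody field lists tbx-11. There were 2 biological replicates of 1 group, without a second condition, so no contrast between conditions could be made.

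RNase P cuts the leader off precursor tRNAs, and RNase MRP is a related enzyme that shares most of its protein subunits and acts in ribosomal RNA processing. The SRP binds signal peptides as they leave the ribosome and brings the ribosome to the endoplasmic reticulum. Y RNAs are small RNAs bound by the Ro protein, which is ROP-1 in this animal. In vertebrates these RNAs are made by RNA polymerase III. There the genes for RNase P, RNase MRP and Y RNA use promoters that lie upstream of the gene, with a proximal sequence element and a TATA box, whereas tRNA genes use the A box and B box inside the gene and the human SRP RNA gene combines internal and upstream elements.

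Selected stretches of sequence named in the results are printed here, all from the RefSeq genome of WBcel235, 5′ to 3′ on the strand of the gene. The first pair starts 80 bases before the annotated start and ends 40 bases into the gene, for mrpr-1 (chrII:7200153-7200272, plus strand) and yrn-1 (chrIV:7499428-7499547, plus strand). They are shown because one gene had a strong peak and the other none, although both carry the words TGTCNGNC and TATATA, marked in capitals (overlapping TATATA matches run together in mrpr-1).

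mrpr-1: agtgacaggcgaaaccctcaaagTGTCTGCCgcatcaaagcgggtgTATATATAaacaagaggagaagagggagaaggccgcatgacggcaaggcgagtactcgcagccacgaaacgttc

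yrn-1: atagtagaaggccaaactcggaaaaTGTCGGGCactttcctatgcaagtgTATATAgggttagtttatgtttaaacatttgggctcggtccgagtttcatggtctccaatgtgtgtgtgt

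The second pair is a whole gene from each of the nearly identical SRP RNA pairs, srpr-1.2 (chrIII:4369468-4369766, plus strand) and srpr-2.1 (chrIII:5211220-5211518, plus strand). Capitals mark the bases at which each differs from its partner, srpr-1.1 or srpr-2.2, where reads lying wholly inside the gene can be told from those of the partner.

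srpr-1.2: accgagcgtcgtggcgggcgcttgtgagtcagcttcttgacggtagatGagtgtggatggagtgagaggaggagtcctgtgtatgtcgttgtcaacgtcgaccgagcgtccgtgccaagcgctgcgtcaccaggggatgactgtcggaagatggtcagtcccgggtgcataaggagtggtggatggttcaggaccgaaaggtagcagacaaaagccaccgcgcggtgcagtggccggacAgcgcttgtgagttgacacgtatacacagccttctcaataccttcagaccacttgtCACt

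srpr-2.1: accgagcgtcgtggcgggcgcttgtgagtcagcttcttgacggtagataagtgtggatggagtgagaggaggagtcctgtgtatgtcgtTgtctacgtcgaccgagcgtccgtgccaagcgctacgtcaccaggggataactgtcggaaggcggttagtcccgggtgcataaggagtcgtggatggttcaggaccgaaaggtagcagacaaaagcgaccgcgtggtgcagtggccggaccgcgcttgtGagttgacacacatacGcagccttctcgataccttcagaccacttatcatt

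The peaks come from 8 lists that the authors deposited. Each of 4 analyses has a ranked list of candidate peaks and a thresholded list of those that passed the authors' reproducibility threshold. They are the conservative pooled analysis of both replicates (87796 candidates, 882 thresholded peaks), another pooled analysis (105251 and 1042), replicate 1 (55301 and 561) and replicate 2 (45180 and 467). Both pooled analyses give the same signal and summit at 5 of the genes, and a pooled value is printed once where they are equal. Signal is the authors' measure of peak strength on a scale that is not stated, and it is compared only within a list. Score is the reproducibility score, up to 1000, and no thresholded peak had a score under 830. The lists overlap in reads and share control alignments, so a gene found in several of them was not measured independently each time. Read depth is unknown because the lists hold no read counts.

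Of the 8 genes, 6 had a thresholded peak in the conservative pooled list, with the summit inside the annotated gene in each case. In that list 3.14% of all nuclear ncRNA genes had a summit within 100 bp, or 0.940% when summits that also lie at a tRNA, snoRNA, snRNA or miRNA gene were left out. The share was 39.9% for tRNA genes, 17.1% for snoRNA genes and 10.1% for snRNA genes. The 6 genes were rpr-1, mrpr-1, srpr-1.1, srpr-1.2, srpr-2.1 and srpr-2.2, and those without a peak were srpr-3 and yrn-1. Since the members were picked with these peaks known, nothing is read from the difference in shares.

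The other lists held fewer of them. The other pooled thresholded list had 4 of the 8 (background 3.36% of ncRNA genes), without srpr-1.1 and srpr-2.1. Each replicate alone had 5 of the 8, the same 5 genes, without srpr-1.1 (background 2.31% in replicate 1 and 2.19% in replicate 2). Of the 6 member peaks in the conservative list, 5 had a summit within 100 bp in both replicate lists, as had 333 of all 882 peaks (37.8%). Among candidates of any score, 7 of the 8 genes had a summit within 100 bp in the conservative ranked list (background 41.3%), 5 in the other pooled one (46.3%), 8 in replicate 1 (28.8%) and 7 in replicate 2 (28.1%).

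**Figure D1:**
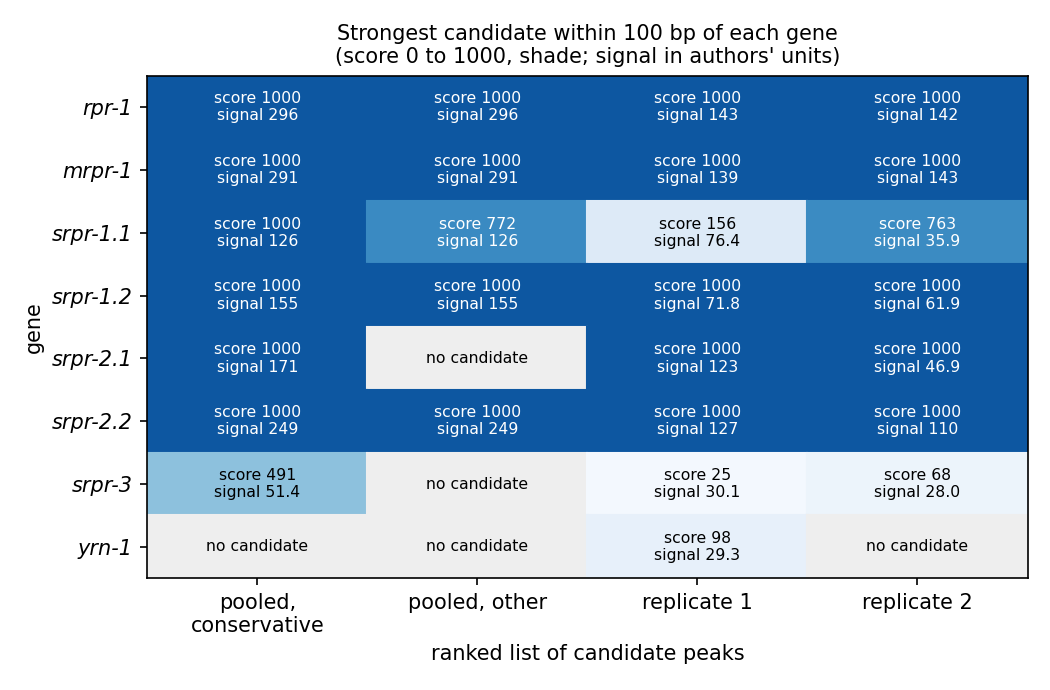
Score (shade and upper number, up to 1000) and signal (lower number, authors' units) of the strongest candidate within 100 bp of each gene, in each of the 4 ranked lists. The genes rpr-1, mrpr-1, srpr-1.2 and srpr-2.2 reach a score of 1000 in every list, while srpr-3 stays at or below 491 and yrn-1 has a candidate only in replicate 1, with a score of 98.

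The RNase P and RNase MRP RNA genes had peaks of nearly equal strength. The gene rpr-1 (WBGene00045238, chromosome I, 13463955 to 13464207, plus strand, 253 bp) lies in an intron of ints-8, an Integrator complex gene on the opposite strand. Its peak had a signal of 296 in the conservative list, 143 in replicate 1 and 142 in replicate 2. The gene mrpr-1 (WBGene00045095, chromosome II, 7200233 to 7200418, plus strand, 186 bp) is intergenic, with the start of pcrg-1 316 bp from its own. Its peak had a signal of 291 in the conservative list, 139 in replicate 1 and 143 in replicate 2. By signal these were neighbours in the conservative list, at ranks 71 and 72 of 882, at 20.7% and 21.7% of the way down the list of replicate 1, and at ranks 58 and 56 of 467 in replicate 2. Both were present in all 8 lists, each time with a peak of score 1000.

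Summits at both genes lay just inside the transcript. At rpr-1 the summit was 24 bp downstream of the first base in both pooled lists, 14 bp in replicate 1 and 25 bp in replicate 2. At mrpr-1 it was 17 bp downstream in both pooled lists, 19 bp in replicate 1 and 14 bp in replicate 2. The positions therefore spread over 11 bp at rpr-1 and 5 bp at mrpr-1. Their called peaks were also narrower than the median in the conservative list, 221 bp and 130 bp against 330 bp. Only 34 of the 882 peaks (3.85%) were 130 bp wide or less. In replicate 2 they were 135 bp and 73 bp wide, against a median of 270 bp, which was also the largest width in that list. In replicate 1 the rpr-1 peak was 86 bp wide, but the mrpr-1 peak was 320 bp, equal to the median and the largest width of that list. Narrow peaks were not particular to these genes. In the conservative list a tRNA peak of signal 290 was 156 bp wide and an ncRNA peak of signal 302 was 164 bp. Narrow peaks at small RNA genes there were mostly strong ones, and weaker peaks were mostly 330 bp wide. Peaks at tRNA genes had a median signal of 150 and a median width of 330 bp, and those at snoRNA genes 257 and 272.5 bp. Width was therefore not separated from signal. A weak candidate lay near the far end of rpr-1 in the ranked lists of replicate 1 (signal 29.8, score 28) and of both pooled analyses (scores 643 and 69), and passed in none.

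The 5 SRP RNA genes fall into a near-identical pair, a further near-identical pair and a single gene. Over the whole gene srpr-1.1 and srpr-1.2 were 98.3% identical, srpr-2.1 and srpr-2.2 were 99.0% identical, and members of different pairs were 94.0% to 94.3% identical. The remaining gene, srpr-3, matched the other 4 at 80.9% to 81.6%. In the 100 bases upstream there was 95.0% identity between srpr-1.1 and srpr-1.2 but 51.5% between srpr-2.1 and srpr-2.2. Aligned from srpr-1.1 to srpr-1.2 the substitutions were A49G, T240A, T296A and T297C, with 1 gap, and from srpr-2.1 to srpr-2.2 they were T90C, G249A and G265A, with positions counted from 1 at the 5′ end of the first gene named.

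Peak strength differed among these copies. The gene srpr-2.2 (WBGene00195017, chromosome III, 5031410 to 5031708, minus strand, in an intron of klp-6, a kinesin gene on the opposite strand) had the strongest SRP peak. At its 5′ end srpr-2.2 overlaps the ncRNA gene R144.16 on the same strand by 39 bp, and the summits lay within 100 bp of both genes. The signal at srpr-2.2 was 249 in the conservative list (rank 104 of 882), 127 in replicate 1 and 110 in replicate 2. Its near-identical partner srpr-2.1 (WBGene00195016, chromosome III, 5211220 to 5211518, plus strand, intergenic) had a signal of 171 in the conservative list (rank 206), 123 in replicate 1 and 46.9 in replicate 2. Of the 5 genes found in both replicate lists, srpr-2.1 changed place the most, from 26.6% of the way down the list in replicate 1 to 86.5% in replicate 2. It also had no candidate in the other pooled ranked list, where the nearest summit was 3905 bp away. Only 8 of the 882 conservative peaks (0.907%) lacked a candidate within 100 bp there.

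The pair srpr-1.2 and srpr-1.1 lies in opposite orientation on chromosome III with 9142 bp between them. The gene srpr-1.2 (WBGene00045168, 4369468 to 4369766, plus strand, in an intron of the choline kinase gene ckb-2 on the same strand) had a signal of 155 in the conservative list (rank 239), 71.8 in replicate 1 and 61.9 in replicate 2. In the replicate lists it stood at 61.5% and 60.0% of the way down, below the middle of each list. The gene srpr-1.1 (WBGene00045189, 4378909 to 4379206, minus strand, intergenic, next to the end of pals-26) had a signal of 126 (rank 326) in the conservative list and was in no other thresholded list. Its strongest candidate had a signal of 76.4 in replicate 1, above the 71.8 of srpr-1.2, and of 35.9 in replicate 2, below the 61.9 of srpr-1.2. Its strongest candidates by signal scored 772 in the other pooled list, 156 in replicate 1 and 763 in replicate 2, all under the lowest thresholded score of 830. A candidate of lower signal, 23 bp from the start, scored higher in the other pooled list, at 813, also under 830. In the conservative ranked list that candidate scored 618.

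**Figure D2:**
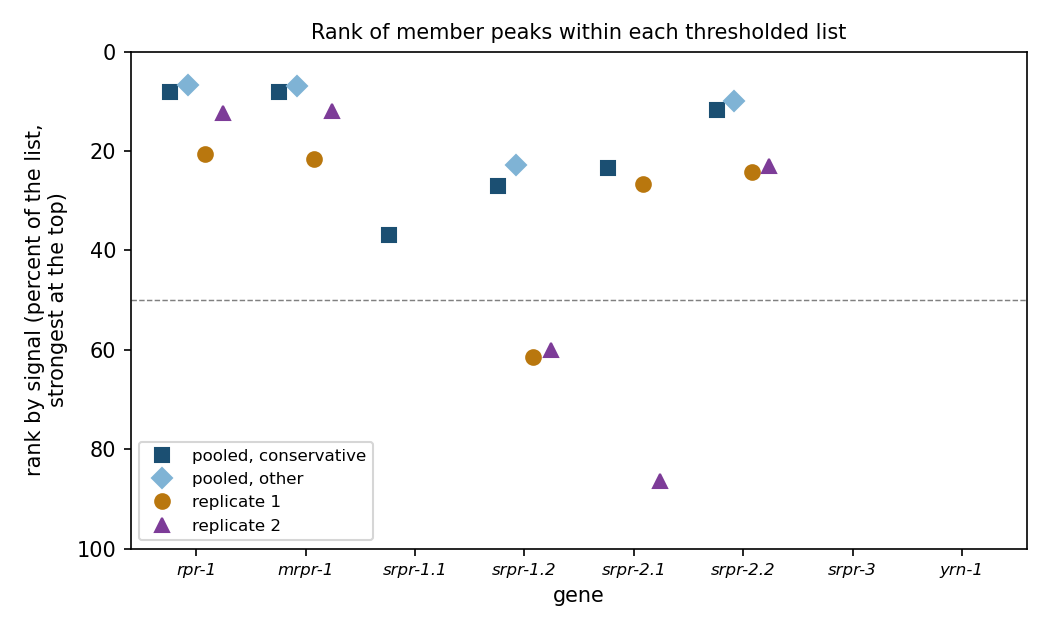
Rank by signal of the strongest peak at each gene within each thresholded list, as a percentage of the list with the strongest peaks at the top; the dashed line marks the middle of the list and a gene without a symbol has no thresholded peak. rpr-1 and mrpr-1 lie between 6.81% and 21.7% in every list, while srpr-2.1 goes from 26.6% in replicate 1 to 86.5% in replicate 2.

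The place of the summit also differed between the pairs. At srpr-2.1 it lay 96 bp into the gene in the conservative list, 94 bp in replicate 1 and 106 bp in replicate 2. At srpr-2.2 it lay 89 bp into the gene in both pooled lists, 84 bp in replicate 1 and 91 bp in replicate 2. At srpr-1.2 the strongest summit lay near the start, at 4 bp in both pooled lists and replicate 1 and at 37 bp in replicate 2. A second peak of srpr-1.2, with a signal of 108 and a summit at 219 bp, passed in the other pooled list, and in the conservative ranked list it scored 502. At srpr-1.1 the order was turned in the pooled lists, with the strongest summit 294 bp from the start and 3 bp before the annotated end, and a weaker candidate at 23 bp with a signal of 67.9. In replicate 1 the candidate near the end was also the stronger (76.4 against 31.0). In replicate 2 both had a signal of 35.9, and the one near the end lay 3 bp outside the gene, in an exon of pals-26.

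These positions can be set beside the parts of each gene that are not unique in the genome. Of the 36-base words inside srpr-1.1, 85.2% occur more than once in the genome, as do 71.2% in srpr-1.2, 68.6% in srpr-2.1 and 67.0% in srpr-2.2, against 0 of those in srpr-3, rpr-1, mrpr-1 and yrn-1. With 50-base words the shares were 76.7%, 58.8%, 61.2% and 59.6%. Bases that no unique 36-base word covers ran from 17 to 203 bp in srpr-1.1 and from 84 to 203 bp in srpr-1.2. In srpr-2.1 and srpr-2.2 such bases left a window between 58 and 124 bp and between 54 and 124 bp that unique words do cover. All thresholded summits of srpr-2.1 and srpr-2.2 fell in that window, which contains T90C, the base 89 bp from the start and the same as the pooled summit of srpr-2.2. Of the 13 thresholded summits at these 4 genes, counted over lists, none lay in a stretch without a unique word of either length. Of 23 candidate summits 3 did with 36-base words, all at srpr-1.1. The lists overlap in reads and such stretches cover only part of each gene and its flanks, so these counts carry no test. Read length and the handling of reads with several placements are not given in the sources used here, so the part of read placement in the position and strength of these summits was not tested.

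**Figure D3:**
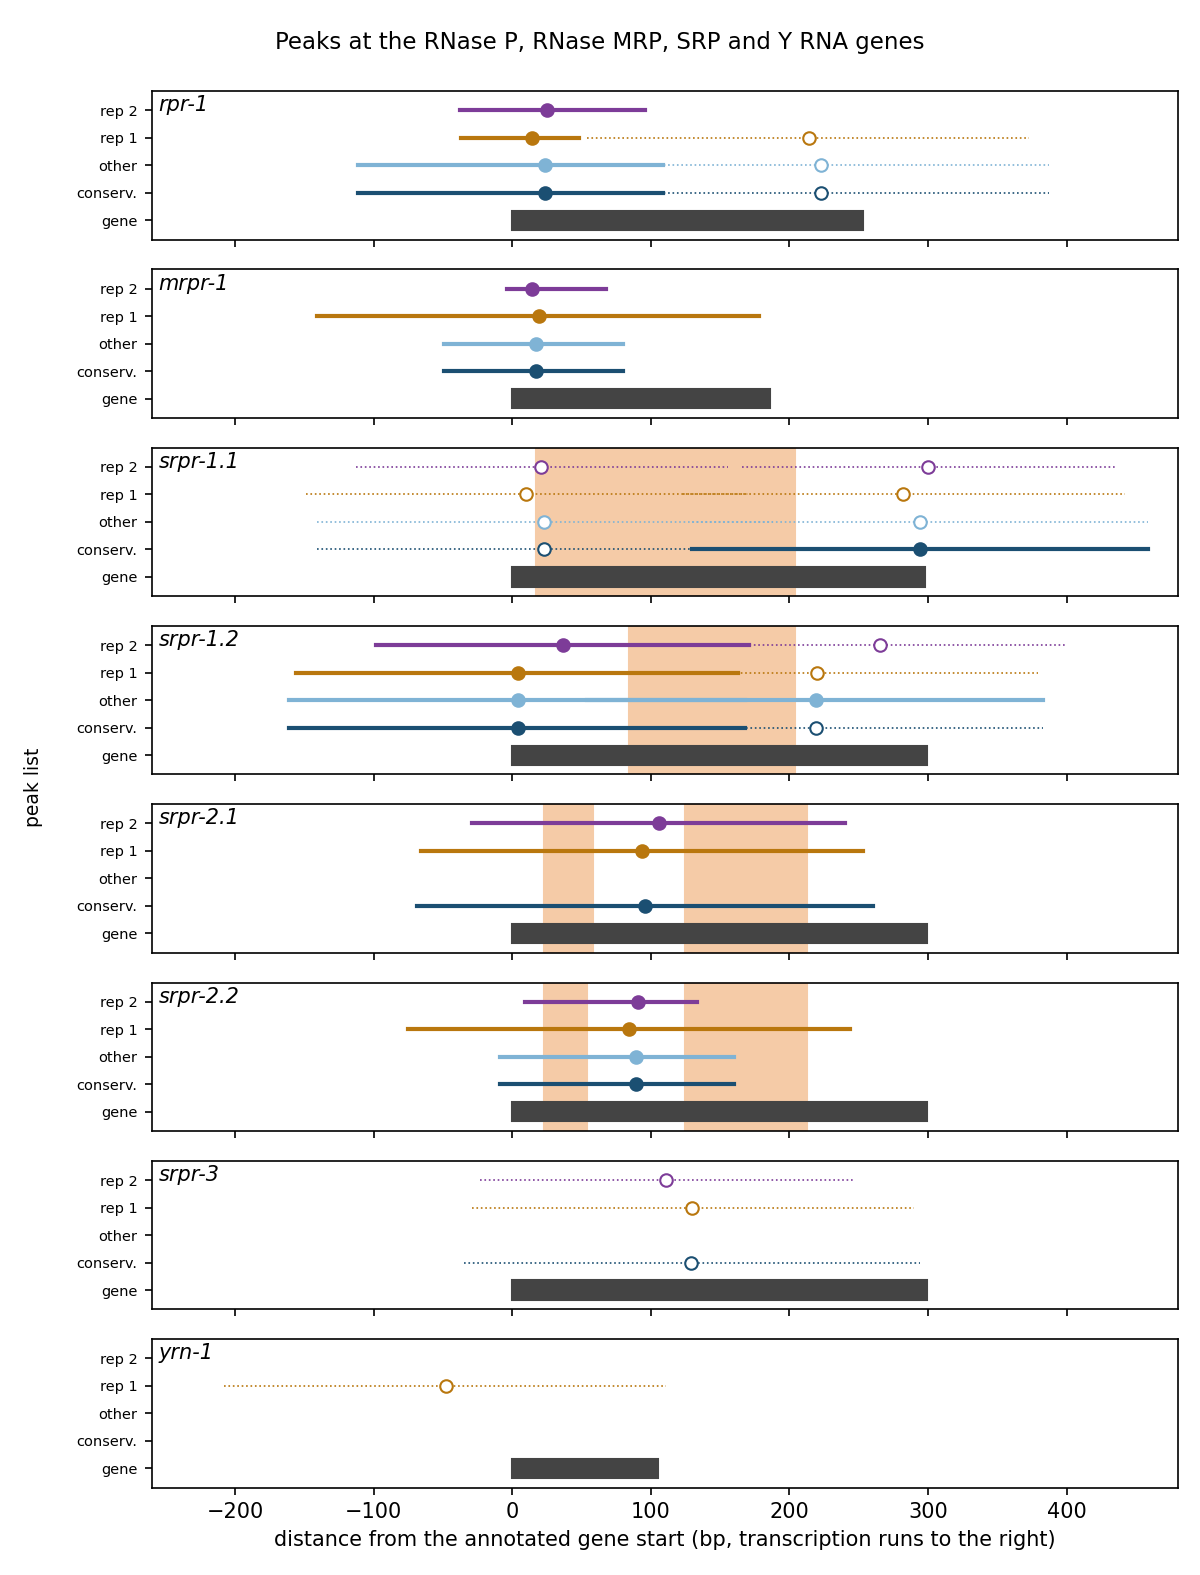
Peaks at the 8 genes by distance from the annotated start (bp), each gene as a dark bar running to the right; lines are called peak intervals and circles are summits, filled and solid for thresholded peaks and open and dotted for candidates that did not pass, in the conservative pooled (conserv.), other pooled (other), replicate 1 and replicate 2 lists. Shading marks bases that no unique 36-base word covers: summits at srpr-2.1 and srpr-2.2 lie between shaded stretches, and those of srpr-1.1 and srpr-1.2 lie mostly to either side of theirs.

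The 2 remaining genes have unique sequence and no thresholded peak. The gene srpr-3 (WBGene00195018, chromosome V, 9293334 to 9293632, minus strand) is annotated a second time as F44A2.13, which covers all 299 bp. It had a candidate with a signal of 51.4 in the conservative ranked list (score 491), 30.1 in replicate 1 (score 25) and 28.0 in replicate 2 (score 68). These summits lay 129, 130 and 111 bp from the start. The candidates stood at 5.25%, 11.8% and 6.79% of the way down these lists of candidates, by signal, and all had scores under the lowest thresholded score of 830. In the other pooled ranked list the nearest summit was 5125 bp away, and 6.11% of ncRNA genes were as far or farther from one.

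The Y RNA gene yrn-1 (WBGene00006967, chromosome IV, 7499508 to 7499612, plus strand, 105 bp) lies in an intron of F55G1.15 on the opposite strand and overlaps the ncRNA gene F55G1.20, also opposite. Its only candidate was in replicate 1, 48 bp upstream of the start, with a signal of 29.3 and a score of 98. The nearest candidate was 7325 bp away in the conservative ranked list and 7340 bp away in replicate 2. In those lists 3.45% and 2.86% of ncRNA genes were as far or farther from any candidate.

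Against other small RNA genes, the RNase P and MRP peaks were stronger than most peaks at tRNA, snRNA and other ncRNA genes. Of the 238 peaks at tRNA genes in the conservative list, 206 were weaker than rpr-1 and as many were weaker than mrpr-1 (86.6%). Of the 60 peaks at snoRNA genes 35 were weaker than either (58.3%), and of 50 peaks at other ncRNA genes 48 were (96.0%). The signal of srpr-2.2 was above 81.1% of the tRNA peaks, and those of srpr-2.1, srpr-1.2 and srpr-1.1 were above 58.0%, 51.3% and 36.6%. Peaks at tRNA genes had a median summit 21 bp downstream of the start, with the middle 50% between 8 and 34 bp, and the rpr-1 and mrpr-1 summits at 24 and 17 bp lay within that range. Peaks at snoRNA genes had their median summit upstream, at -47.5 bp, and 56 of 60 lay before the start, as no thresholded member summit did. At snRNA genes the median was 32 bp over 14 peaks, with the middle 50% between 6 and 110 bp, and at other ncRNA genes it was 45.5 bp, between 8 and 124 bp. Those ranges hold the rpr-1 and mrpr-1 summits too, so the position did not single out the tRNA genes. These are descriptions within 1 list, and genes that share a summit were counted once.

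**Figure D4:**
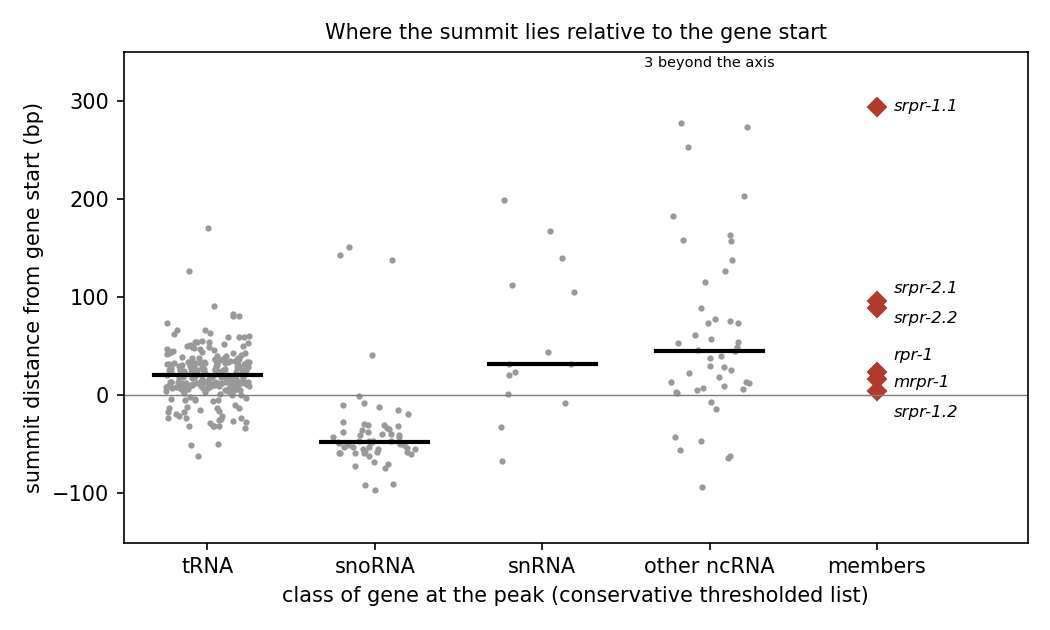
Distance of the summit from the annotated gene start (bp, downstream positive) for peaks of the conservative thresholded list at tRNA, snoRNA, snRNA and other ncRNA genes (grey points, spread sideways for sight, with black bars at the medians, and 3 other ncRNA peaks beyond the axis) and for the 6 members with a peak (red diamonds). rpr-1 and mrpr-1 lie at 24 and 17 bp, beside the tRNA median of 21 bp, srpr-1.2 lies at 4 bp, and srpr-1.1 lies at 294 bp.

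The same upstream words stood before the RNase P, RNase MRP and Y RNA genes, with and without a peak. The fixed TATA pattern TATAAA, sought on both strands, occurred in the 100 bases before the start of 1 of 8 members, mrpr-1. It occurred before 17.5% of all nuclear genes and 9.08% of ncRNA genes. After the upstream sequences had been seen, TATATA and TGTCNGNC were sought in the same way. Each occurred at 3 of 8 members, the same 3 genes, rpr-1, mrpr-1 and yrn-1, against 5.07% and 1.51% of nuclear genes, and at no SRP RNA gene. The words were taken from these 3 genes, so their presence there is not a finding. The spacing of the words was read on the same genes and is a description as well. TGTCNGNC began 55 bases before the start at rpr-1 and yrn-1 and 57 bases before it at mrpr-1, and a TATATA began 25 bases after it in all 3. At mrpr-1 an overlapping TATATA also began 2 bases nearer. Of these, rpr-1 and mrpr-1 had peaks in every list and yrn-1 in no thresholded list.

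Patterns of the internal promoter were sought in the same genes. The A box pattern of tRNA genes, sought inside the gene on both strands, had no match in any member. It was found in only 14.5% of tRNA genes and 2.25% of ncRNA genes, so its absence from 8 genes says little. The B box pattern GTTCNANNC matched 1 member, yrn-1, at 63 bp from the start, against 96.1% of tRNA genes and 9.67% of ncRNA genes. A run of TTTT, of the kind at which RNA polymerase III stops, lay in the last 4 bases or within 20 bases after the end of all 8 members, against 40.7% of nuclear genes. Its share among ncRNA or other small RNA genes was not computed, so nothing is read from that difference. The T-box core GGTGTG, sought within 100 bp of the summit on both strands, was at none of the 6 member summits of the conservative list, against 85 of all 882 (9.64%). A missing match says only that these letters are not in the window searched.

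Genes for the protein partners of these RNAs and for the polymerase III machinery were looked up for promoter peaks in the conservative list. Of 23 such genes 1 had a summit from 1000 bp upstream to 500 bp downstream of its start, against 2.45% of all 19973 nuclear protein-coding genes. For the machinery of transcription, no summit was found at the 4 rpc genes for polymerase III subunits, at the 3 tftc genes for TFIIIC or at brf-1 and tbp-1 for TFIIIB. The same held at the 7 snpc genes for the small nuclear RNA activating complex. With so few genes, neither the count of 1 nor these empty groups can be told from the share of all protein-coding genes.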

How the data were processed

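Peak lists on assembly ce11 were used as deposited. Per the deposited file descriptions, the lists of a replicate were made from its own alignments and the pooled lists from both sets, with shared control alignments. For the aligner, the peak caller and the filters on reads, names and versions are not given in the sources used here. Signal and score, as the authors deposited them, were used unchanged and only within 1 list, and the deposited summit position, a count of bases from the peak start, placed each peak. In the ranked lists, columns of unnamed sub-analyses were not used.

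Chromosome names and lengths of the lists, the RefSeq genome and the Ensembl release 115 annotation were compared and fitted together. A summit belonged to a gene if it lay within 100 bp. Offsets count from 0 at the first annotated base. A peak at several classes of gene counted once, in the order members, tRNA, snoRNA, snRNA, miRNA, other ncRNA. SRP genes were aligned globally with Biopython 1.88 (match 2, mismatch -1, gap opening -5, extension -1). The lookup was tested on simulated peaks. The members and lists were chosen with earlier results of these data known. With 1 group no test was made. Named genes were the members, their host or neighbouring genes and genes of the partner list, while the partner gene with a promoter summit is not reported here. The alternatives tried were the other lists, each replicate alone, other windows and peak midpoints.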

Additional observations from a re-analysis of the deposited data

How the results depend on the processing

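The count of 6 genes with a peak in the conservative pooled list did not change with the summit required inside the gene, within 50, 200 or 500 bp, with overlap of the peak interval, or among peaks at or above the median signal. It was 4 in the other pooled list and 5 with either replicate left out. The median signal of the member peaks was 210, and 270 over the 4 members in the other pooled list, which lacks 2 of the weaker ones. With a replicate left out it ranged from 110 to 127, in lists of a single replicate. Because signal is compared only within a list, these medians are not read as a change in the members. The median rank of the member peaks was 155, and 209 when counted among all ranked candidates, which include peaks not in the thresholded list. The median summit offset was 56.5 bp, 20.5 bp in the other pooled list, and from 19 to 37 bp with a replicate left out, again over fewer members, and 45.5 bp by peak midpoint. At srpr-1.1, srpr-1.2 and srpr-2.1 the summit sits at the middle of a 330 bp interval. There the midpoint could not move the offset and is no check of it. The 1 partner gene with a promoter summit became 0 when each summit went to the nearest start within 5 kb, where the cause was not tested, and stayed 1 with a window of 500 bp upstream. The words TATATA and TGTCNGNC, chosen after seeing the data, were each at 3 members against 1 for TATAAA. No paired analysis was possible because there is 1 group. With no read counts in the lists, depth cannot bound what a missing peak means at srpr-3 or yrn-1.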

Other observations

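The pair of words found upstream of rpr-1, mrpr-1 and yrn-1 was also sought at every other nuclear gene. TGTCNGNC followed by TATATA on the gene strand, in the 100 bases before the start, occurred at 28 of 46890 genes, the 3 members among them. Of the 25 others, 13 had the same spacing of 25 bases as the members. All 13 are annotated as snRNA (6), ncRNA (5), snoRNA (1) or miRNA (1), and none of the 10 protein-coding genes and 2 piRNA genes with both words had that spacing. Of the 13 loci, 5 had a summit within 100 bp in the conservative thresholded list, and they were the snRNA gene F54D8.7, 2 of the 3 loci named R07E5.16, and the ncRNA genes W01D2.7 and W01D2.9. Over whole classes the share with such a summit was 10.1% of snRNA genes, 3.07% of ncRNA genes without the members, 17.1% of snoRNA genes and 2.30% of miRNA genes. Gene copies and overlapping annotations among the 13 were counted singly, so they are not independent. The words were built from the members and these genes were named after their values were seen, so the counts are a description and nothing about a factor that reads the words was tested.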
